A study of Mus musculus with 12 samples.

Results

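RNA-Seq of 1-month-old mouse brain was used to follow 34 genes of cholesterol synthesis, uptake and efflux, chosen by gene name from the 55450 annotated genes of the count files. They comprised 19 enzymes of synthesis, 4 genes of SREBP2 control, 4 of uptake, transport and esterification and 7 of efflux and turnover. All 34 had enough counts to be tested in every comparison. Whole cerebellum and cerebral cortex were taken from *Snx14*-KO mice, which carry a small Cas9-made deletion in *Snx14* in every cell on a C57BL/6J background, and from WT mice, at 1 month of age. Each tissue and genotype had 3 libraries, 12 in all, and each library came from 1 mouse whose sex the labels do not give. SNX14 is a sorting nexin of the endoplasmic reticulum that has been tied to lipid droplets, and the comparison asked how its loss bears on lipid genes in the cerebellum, the region whose atrophy marks SNX14 deficiency, and in the cortex.

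Brain cholesterol is made locally, because lipoproteins of the blood do not pass the blood-brain barrier. Oligodendrocytes make it for myelin and astrocytes make it for export on APOE particles, while neurons shed the excess through cholesterol 24-hydroxylase, CYP46A1. When sterols in the endoplasmic reticulum are low, SCAP carries SREBP2 to the Golgi, where it is cleaved and goes on to switch on the synthesis enzymes. When sterols are plentiful, INSIG proteins hold SCAP back, and the oxysterol receptors LXR alpha and LXR beta (*Nr1h3*, *Nr1h2*) switch on the efflux genes *Abca1*, *Abcg1* and *Apoe*.

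Promoters of 28 of the 34 genes were found in RefSeq sequences (GRCm38.p6). *Fdps*, *Fdft1*, *Sqle*, *Stard4*, *Abcg1* and *Abcg4* had no entry. The 250 bases before each start site were searched on both strands for letters of the kind bound by SREBP2 (TCACNNCAC), NF-Y (CCAAT) and SP1 (GGGCGG), where N is any base. TCACNNCAC was found in 4 of the 28 promoters, those of *Hmgcs1*, *Msmo1*, *Hsd17b7* and *Dhcr7*, against 3.63% of 27025 genes. Only *Hmgcs1* held the narrower TCACNCCAC (1.22% of all genes), which is contained in the wider motif. CCAAT was found in 21 of 28, and in 15 of the 16 synthesis promoters, against 37.5% of all genes and 39.5% of the 17492 coding genes. GGGCGG was found in 22 of 28, against 35.4% of all and 45.8% of coding genes. The LXR-type direct repeat was found in 0 of 28 (0.0148% of all genes), which says only that these letters are not in these windows. A match is a description of the letters and was not tested as a site.

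A few promoters are shown, with matches to TCACNNCAC and CCAAT on either strand in capitals. Those of *Hmgcs1* and *Hsd17b7* show both motifs in a synthesis gene. Those of *Ebp*, *Srebf2* and *Cyp46a1* belong to the genes that differed most between WT cerebellum and WT cortex among synthesis, SREBP2 control and efflux genes. The windows lie at chr13:119690101-119690350 (*Hmgcs1*, plus strand), chr1:169969242-169969408 (*Hsd17b7*, minus strand), chr15:82147019-82147180 (*Srebf2*, plus strand), chrX:8193513-8193762 (*Ebp*, minus strand) and chr12:108334066-108334315 (*Cyp46a1*, plus strand). For *Hsd17b7* and *Srebf2*, 83 and 88 bases that are exon in the annotation were left out.
Hmgcs1: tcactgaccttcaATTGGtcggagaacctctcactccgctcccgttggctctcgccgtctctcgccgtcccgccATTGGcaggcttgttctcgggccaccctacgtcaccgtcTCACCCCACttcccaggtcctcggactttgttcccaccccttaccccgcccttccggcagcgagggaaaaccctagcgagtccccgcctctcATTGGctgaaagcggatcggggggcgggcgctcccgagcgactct
Hsd17b7: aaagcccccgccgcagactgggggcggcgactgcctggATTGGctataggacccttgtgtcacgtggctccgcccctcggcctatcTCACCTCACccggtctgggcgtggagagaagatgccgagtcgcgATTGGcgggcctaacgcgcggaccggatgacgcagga
Srebf2: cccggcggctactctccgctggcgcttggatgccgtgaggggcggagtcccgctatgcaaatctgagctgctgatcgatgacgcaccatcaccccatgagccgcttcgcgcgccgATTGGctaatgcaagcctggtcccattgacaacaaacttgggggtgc
Ebp: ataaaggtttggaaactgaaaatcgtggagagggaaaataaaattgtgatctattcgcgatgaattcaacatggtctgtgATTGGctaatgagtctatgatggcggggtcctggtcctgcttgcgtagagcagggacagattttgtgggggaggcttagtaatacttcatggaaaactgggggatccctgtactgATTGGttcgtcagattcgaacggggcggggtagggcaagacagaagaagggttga
Cyp46a1: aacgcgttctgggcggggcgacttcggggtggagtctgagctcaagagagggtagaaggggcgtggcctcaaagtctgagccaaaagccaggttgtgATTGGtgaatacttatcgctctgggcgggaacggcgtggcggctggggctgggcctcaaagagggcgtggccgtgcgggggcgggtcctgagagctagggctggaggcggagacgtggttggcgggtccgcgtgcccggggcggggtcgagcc
The TCACNNCAC match starts 137 bases before the RefSeq start in *Hmgcs1* and 117 bases before it in *Hsd17b7*. The *Srebf2* window holds 1 CCAAT, *Ebp* holds 2 and *Cyp46a1* holds 1, and none of them holds TCACNNCAC.

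The libraries held 16672589 to 19887427 counts on genes. *Snx14* was at 64.7 ± 1.497 CPM in WT cerebella (SD, n = 3), against 10.8 ± 0.418 CPM in those of *Snx14*-KO mice, and at 56.2 ± 3.28 CPM in WT and 8.03 ± 0.410 CPM in *Snx14*-KO cortices, so the labels fit the targeted gene. CPM here are counts scaled to library size with edgeR's TMM factors over all 12 libraries. All 8 granule cell and all 8 Purkinje cell markers were higher in WT cerebellum than in WT cortex, and all 8 cortical neuron markers were lower, each past the threshold. Several libraries stood apart in markers of other cell types. *Snx14*-KO cerebellum replicate 3 held 670 CPM summed over 12 microglia genes, against 218 to 290 CPM in the other cerebella. Over 10 meningeal fibroblast genes the *Snx14*-KO cerebella held 475 to 487 CPM and the WT cerebella 183 to 356 CPM. *Snx14*-KO cortex replicate 2 held 402 CPM of these genes, against 110 to 152 CPM in the other cortices, and 5755 CPM over 10 oligodendrocyte genes, against 7484 to 8535 CPM. WT cerebellum replicate 1 held the highest oligodendrocyte sum of the cerebella, 14827 CPM, against 11274 to 13418 CPM. Over 8 choroid plexus genes the sum ran from 81.4 to 7320 CPM among the WT cerebella and from 969 to 3200 CPM among the *Snx14*-KO cerebella. Over 8 cortical neuron genes, *Snx14*-KO cerebella 1 and 3 held 379 and 352 CPM, against 183 to 204 CPM in the other cerebella. *Nrgn*, one of these genes, was at 122, 9.15 and 117 CPM in *Snx14*-KO cerebella and at 1.97 to 6.17 CPM in WT cerebella, whereas *Tbr1*, another of them, was between 0.325 and 1.21 CPM in every cerebellum. Astrocyte sums ran from 7461 to 8219 CPM in WT and from 8245 to 9248 CPM in *Snx14*-KO cerebella, and from 6160 to 7029 and from 6534 to 7077 CPM in the cortices. Endothelial and mural sums ran from 255 to 316 and from 309 to 368 CPM in WT and *Snx14*-KO cerebella, and from 193 to 263 and from 258 to 278 CPM in the cortices. No oligodendrocyte, astrocyte, microglia or meningeal marker was at 0 in any library.

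Per length, *Apoe* was by far the most abundant of the 34 genes in both WT tissues, at 681 ± 25.4 FPKM (SD, n = 3) in cerebellum and 574 ± 22.52 FPKM in cortex. Among the enzymes of synthesis, *Hmgcs1*, which makes HMG-CoA at the entry of the pathway, was highest, at 55.5 ± 7.77 FPKM in cerebellum and 77.8 ± 3.66 FPKM in cortex. *Lss*, which closes the sterol ring, was lowest, at 3.46 ± 0.252 and 3.56 ± 0.277 FPKM. In cortex *Hmgcs1* was followed by *Cyp46a1* at 56.4 ± 0.566 FPKM and *Srebf2* at 34.4 ± 1.36 FPKM, and the ranges of these 3 genes did not overlap. *Insig1* (26.1 ± 3.44 FPKM) and *Fdft1* (23.7 ± 0.541 FPKM) came next, and their ranges overlapped. At the bottom of the order in cortex stood *Nr1h3*, at 0.862 ± 0.192 FPKM, and *Soat1*, the esterifying enzyme of the endoplasmic reticulum, at 3.35 ± 0.366 FPKM, whose range overlapped that of *Lss*. FPKM here divide each gene's CPM by all of its exon bases, so a gene with long unused exons reads low.

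**Figure D1:**
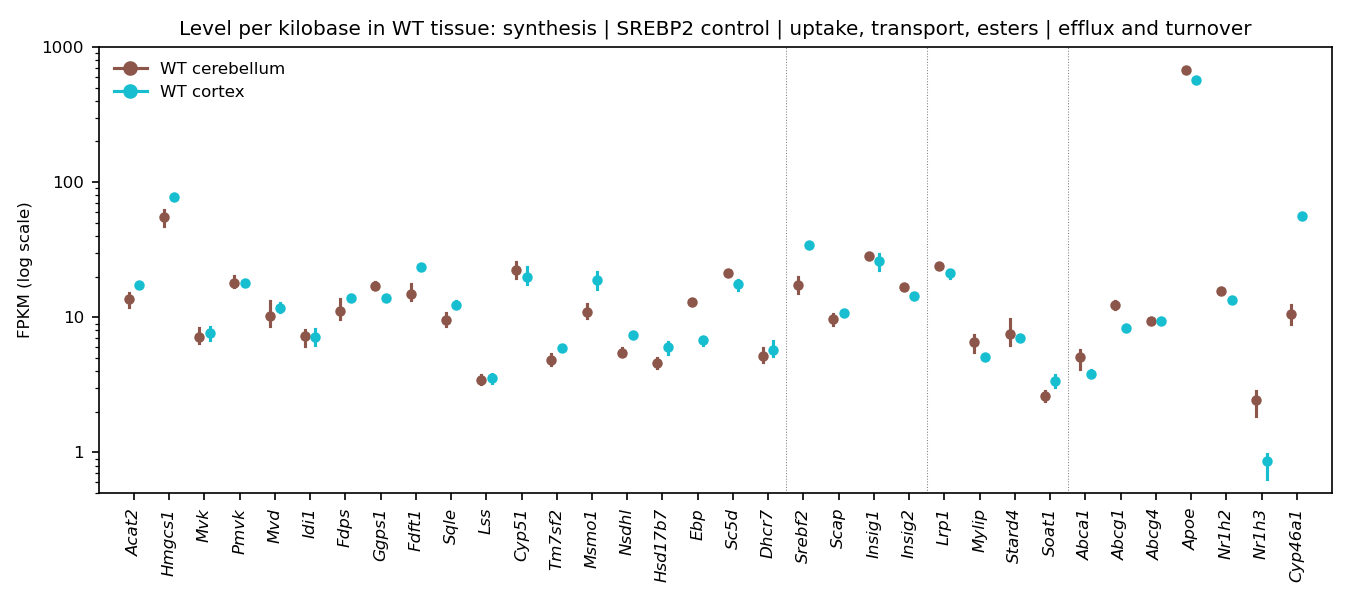
Level per kilobase of exon in WT cerebellum and WT cortex for the 34 genes, in FPKM on a log axis, with points for the mean of 3 libraries and bars from the lowest to the highest. *Apoe* stands at 574 to 681 FPKM, and *Cyp46a1* and *Nr1h3* show the widest gaps between the tissues.

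The next comparison, of *Snx14*-KO with WT cerebral cortex, asked whether loss of *Snx14* moved cholesterol genes outside the cerebellum. No gene of the 34 passed the threshold (an adjusted p below 0.05 together with a log2 fold change beyond 0.5 in either direction) by edgeR's quasi-likelihood test, which called 0.00548% of 18255 genes, or by DESeq2, which called 0.0493%. At the level of unadjusted p under 0.05, 8 members were higher and 0 were lower, against 2.24% and 2.26% of all genes tested (4.5% in both directions). The measured direction was mostly upward, with 28 of 34 genes higher in *Snx14*-KO cortices, against 50% of all genes, and 18 of 19 enzymes of synthesis. The median log2 fold change was 0.17 over the synthesis genes, 0.08 over the 4 genes of SREBP2 control, 0.05 over the 4 genes of uptake, transport and esterification and -0.03 over the 7 genes of efflux and turnover, where the median of all genes was 8.19e-05. In bulk tissue, fewer cells of a type and less RNA per cell cannot be told apart.

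Among the enzymes of synthesis, the largest difference was in *Sqle*, the squalene epoxidase that commits squalene to sterols. It was at 73.8, 66.0 and 66.0 CPM in WT and 73.1, 118 and 86.3 CPM in *Snx14*-KO cortices. The highest WT and the lowest *Snx14*-KO library overlapped, and replicate 2 of the *Snx14*-KO cortices stood far above the rest. The log2 fold change was 0.44 (SE 0.137, unadjusted p = 0.00792, adjusted p = 0.996 by edgeR's quasi-likelihood test, Benjamini-Hochberg adjusted).

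*Acat2*, the cytosolic thiolase that makes acetoacetyl-CoA, and *Fdft1*, the squalene synthase, had the smallest p values of the 34 genes. *Acat2* was at 44.6, 44.2 and 42.5 CPM in WT and 56.7, 60.8 and 50.1 CPM in *Snx14*-KO cortices. *Fdft1* was at 101, 97.6 and 102 CPM in WT and 113, 139 and 126 CPM in *Snx14*-KO cortices. In both genes every *Snx14*-KO library lay above every WT library. The log2 fold change was 0.36 for *Acat2* (SE 0.0835, unadjusted p = 0.00113, adjusted p = 0.881 by the same edgeR test) and 0.34 for *Fdft1* (SE 0.0792, unadjusted p = 0.00117, adjusted p = 0.881). Of the exon bases of *Fdft1*, 18.3% are also exon of *Ctsb* on the other strand, and pairs there were counted for both genes, since the counting ignored strand.

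*Nsdhl*, which removes the methyl groups at carbon 4 of the sterol ring, was at 20.2, 20.6 and 22.3 CPM in WT and 22.6, 32.2 and 24.02 CPM in *Snx14*-KO cortices. *Fdps*, which makes farnesyl diphosphate, was at 61.1, 56.9 and 57.2 CPM in WT and 62.9, 90.2 and 62.3 CPM in *Snx14*-KO cortices. The groups did not overlap in either gene, but the gap was narrow and replicate 2 alone stood well above the rest. The log2 fold change was 0.33 for *Nsdhl* (SE 0.129, unadjusted p = 0.0267, adjusted p = 0.996 by edgeR) and 0.30 for *Fdps* (SE 0.122, unadjusted p = 0.0293, adjusted p = 0.996). *Fdps* shares 26.7% of its exon bases with *Gm43738* on the same strand, so its counts are uncertain.

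*Hmgcs1* was at 377, 350 and 345 CPM in WT and 347, 487 and 439 CPM in *Snx14*-KO cortices. Its replicate 1 lay within the WT range and the others above it. The log2 fold change was 0.25 (SE 0.103, unadjusted p = 0.0310, adjusted p = 0.996 by edgeR), and 12.1% of its exon bases are shared with an antisense gene. *Idi1*, the isopentenyl diphosphate isomerase, was at 29.0, 21.9 and 24.9 CPM in WT and 20.9, 33.4 and 29.9 CPM in *Snx14*-KO cortices, and *Dhcr7*, which performs the last reduction to cholesterol, was at 39.0, 30.5 and 30.1 CPM and 30.6, 41.2 and 37.6 CPM. Both overlapped between genotypes, with log2 fold changes of 0.16 (95% interval -0.18 to 0.50) and 0.14 (95% interval -0.13 to 0.42). Without *Snx14*-KO replicate 2 these were 0.02 and 0.05, without *Snx14*-KO replicate 1 *Idi1* was at 0.33, and without WT replicate 1 *Dhcr7* was at 0.27. The remaining synthesis genes lay between -0.01 (*Ggps1*, of the branch to protein prenylation) and 0.24 (*Mvd*).

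Of the control genes, *Insig1*, itself a target of SREBP2, was at 90.7, 69.5 and 81.7 CPM in WT and 87.8, 115 and 93.3 CPM in *Snx14*-KO cortices. The ranges overlapped, and the log2 fold change was 0.29 (SE 0.111, unadjusted p = 0.0215, adjusted p = 0.996 by edgeR). *Srebf2*, which encodes SREBP2, was at 253, 236 and 251 CPM in WT and 255, 295 and 261 CPM in *Snx14*-KO cortices. A small margin separated the higher *Snx14*-KO from the WT values, with a log2 fold change of 0.13 (95% interval -0.02 to 0.29). *Stard4*, a soluble carrier of sterol between membranes, was at 41.3, 37.9 and 38.8 CPM in WT and 42.9, 63.7 and 47.3 CPM in *Snx14*-KO cortices. Its groups did not overlap, with a log2 fold change of 0.39 (SE 0.124, unadjusted p = 0.00898, adjusted p = 0.996 by edgeR). *Soat1* was at 36.8, 31.7 and 29.9 CPM in WT and 26.0, 38.2 and 34.8 CPM in *Snx14*-KO cortices, which spans the WT range, with a log2 fold change of 0.01 (95% interval -0.28 to 0.30).

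On the efflux side, 0 of 7 genes had an unadjusted p under 0.05 and 3 of 7 were higher. *Abca1*, the transporter that loads lipid on apolipoproteins, was at 42.1, 37.2 and 38.8 CPM in WT and 32.9, 47.0 and 34.7 CPM in *Snx14*-KO cortices, and *Abcg1* was at 58.8, 64.5 and 58.3 CPM and 58.4, 54.0 and 60.8 CPM. Their log2 fold changes were -0.04 (95% interval -0.30 to 0.23) and -0.06 (95% interval -0.23 to 0.10). Without *Snx14*-KO replicate 2 that of *Abca1* was -0.21, and without *Snx14*-KO replicate 1 it was 0.05. *Apoe* was at 1252, 1257 and 1171 CPM in WT and 1448, 1081 and 1386 CPM in *Snx14*-KO cortices, so replicate 2 was the lowest library for *Apoe* and the highest for most enzymes of synthesis. Its log2 fold change was 0.09 (95% interval -0.11 to 0.30), or 0.21 without replicate 2 and 0.0085 without replicate 1 of the *Snx14*-KO cortices. That of *Abcg1* ran from -0.10 without *Snx14*-KO replicate 3 to -0.02 without WT replicate 2. *Cyp46a1* was at 187, 186 and 183 CPM in WT and 210, 203 and 190 CPM in *Snx14*-KO cortices. These groups did not overlap, with a log2 fold change of 0.12 (95% interval -0.02 to 0.26, unadjusted p = 0.0941 by edgeR).

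In all, 8 of the 34 genes had every *Snx14*-KO cortex above every WT cortex and 0 had every one below, against 4.51% and 4.74% of all genes. The counts were 17 and 0 when *Snx14*-KO replicate 1 was left out (9.76% and 10.8% of all genes) and 14 and 1 when WT replicate 1 was (9.11% and 9.32%). Of the 8, 5 were synthesis genes, *Acat2*, *Fdps*, *Fdft1*, *Tm7sf2* and *Nsdhl*, and the others were *Srebf2*, *Stard4* and *Cyp46a1*. *Snx14*-KO replicate 2 was the highest of the 6 cortices for 15 of the 19 synthesis genes. It was also the library with the lowest oligodendrocyte and the highest meningeal sum. Its astrocyte score, the mean over 10 markers of log2(CPM + 1) minus the mean of the 6 cortices, was 0.25, against -0.16 to 0.05 in the other cortices, with *Gfap* at 1050 CPM against 147 to 261 CPM. Other astrocyte markers went the other way. This library was the lowest cortex for *Slc1a2* (3325 against 3794 to 4349 CPM), *Aldoc* (766 against 847 to 1013 CPM) and *S100b* (129 against 136 to 150 CPM). Its astrocyte sum, 6769 CPM, lay within the range of the other cortices. All 10 oligodendrocyte markers had lower values in *Snx14*-KO cortices (median log2 fold change -0.30, 8 with an unadjusted p under 0.05) and all 10 meningeal markers higher ones (median 0.67, 7 with an unadjusted p under 0.05), none of them past the threshold. The part of these cell types in the differences was not tested.

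Without *Snx14*-KO replicate 2, 18 of 19 synthesis genes were still higher, with a median log2 fold change of 0.11. Among members, 6 then had an unadjusted p under 0.05 and were higher, *Apoe* among them, and 1, *Abca1*, was lower, with 4.45% of all genes at that level. The absence of this replicate left log2 fold changes of 0.22 for *Sqle*, 0.15 for *Nsdhl*, 0.14 for *Hmgcs1*, 0.11 for *Fdps*, 0.20 for *Stard4*, 0.17 for *Insig1* and 0.07 for *Srebf2*, whereas *Acat2* was at 0.29 and *Fdft1* at 0.26. Without *Snx14*-KO replicate 1, 13 members had an unadjusted p under 0.05, all higher (6.03% of all genes in both directions), and without WT replicate 2 there were 4, all higher (3.87%). The synthesis median was 0.26 without *Snx14*-KO replicate 1 and 0.27 without WT replicate 1. No member passed the threshold with any library left out.

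**Figure D2:**
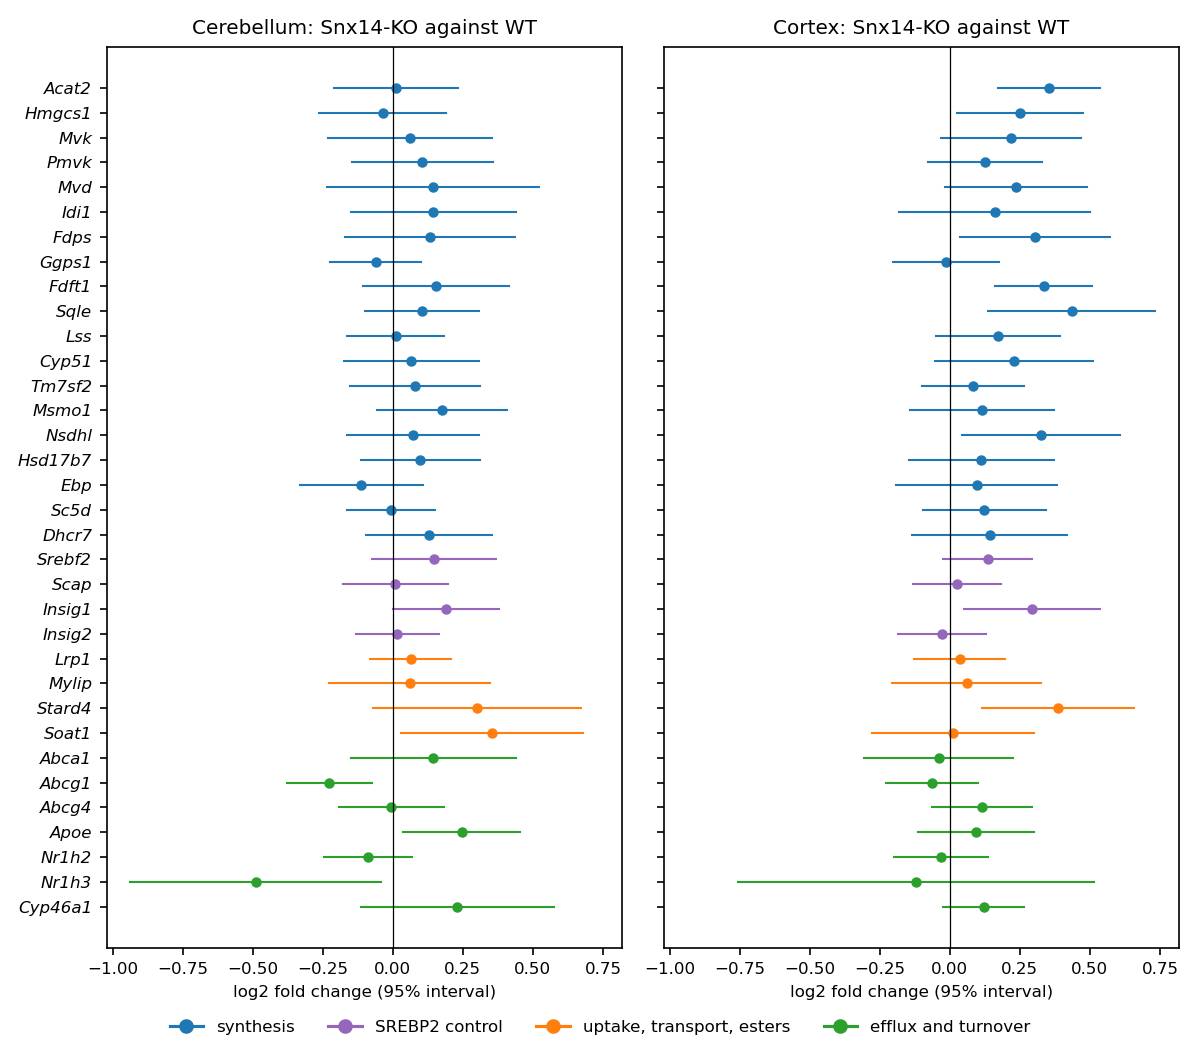
Log2 fold change of *Snx14*-KO against WT libraries for the 34 genes in cerebellum (left) and cortex (right), with points for the estimate of edgeR's quasi-likelihood fit and bars for the 95% interval. In cortex 18 of 19 synthesis genes lie to the right of 0, while the efflux genes lie on both sides of it in both tissues.

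In cerebellum, 0 of the 34 genes passed the threshold by edgeR (0.00549% of 18201 genes called) or by DESeq2 (0.901% called). The synthesis genes had small log2 fold changes, from -0.11 (*Ebp*) to 0.18 (*Msmo1*), 15 of 19 higher, a median of 0.08 and 0 of 19 with an unadjusted p under 0.05. In the other groups 4 members had an unadjusted p under 0.05, 2 higher (*Soat1*, *Apoe*) and 2 lower (*Abcg1*, *Nr1h3*), against 5.78% and 2.37% of all genes (8.15% in both directions). Over the 34 genes 26 were higher, against 49.9% of all genes, and the medians were 0.08 over SREBP2 control, 0.18 over uptake, transport and esterification (4 of 4 higher) and -0.0049 over efflux and turnover.

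*Hmgcs1* was at 288, 260 and 217 CPM in WT and 230, 245 and 263 CPM in *Snx14*-KO cerebella, with a log2 fold change of -0.04 (95% interval -0.26 to 0.19). *Sqle* was at 59.96, 47.5 and 51.2 CPM in WT and 54.2, 58.2 and 56.8 CPM in *Snx14*-KO cerebella, with a log2 fold change of 0.10 (95% interval -0.10 to 0.31). In both genes the *Snx14*-KO libraries lay inside the WT range. *Acat2* (38.7, 35.0 and 30.2 CPM in WT, 32.3, 35.3 and 36.0 CPM in *Snx14*-KO) and *Fdft1* (74.0, 56.4 and 58.7 CPM in WT, 61.8, 70.1 and 76.5 CPM in *Snx14*-KO) overlapped as well, with log2 fold changes of 0.01 (95% interval -0.21 to 0.23) and 0.15 (95% interval -0.11 to 0.41). *Idi1* (28.5, 27.0 and 21.4 CPM in WT, 24.1, 30.7 and 29.3 CPM in *Snx14*-KO) and *Dhcr7* (34.5, 27.9 and 27.3 CPM in WT, 31.3, 33.9 and 32.1 CPM in *Snx14*-KO) were at 0.14 and 0.13 on the log2 scale, with overlapping ranges. Single libraries moved these small estimates, which ran from 0.03 (without WT replicate 2) to 0.19 (without WT replicate 1) for *Sqle* and from 0.07 (without *Snx14*-KO replicate 3) to 0.27 (without WT replicate 1) for *Fdft1*. They ran from 0.03 (without WT replicate 3) to 0.24 (without *Snx14*-KO replicate 1) for *Idi1* and from 0.07 (without WT replicate 3) to 0.23 (without WT replicate 1) for *Dhcr7*.

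*Srebf2* was at 143, 122 and 108 CPM in WT and 128, 138 and 143 CPM in *Snx14*-KO cerebella, with a log2 difference of 0.15 (95% interval -0.07 to 0.37). *Insig1* was at 92.5, 84.1 and 86.7 CPM in WT and 109, 101 and 87.8 CPM in *Snx14*-KO cerebella. Its ranges overlapped, and the log2 fold change was 0.19 (SE 0.0843, unadjusted p = 0.0502, adjusted p = 0.614 by edgeR), or 0.12 without *Snx14*-KO replicate 1. *Stard4* was at 54.3, 37.0 and 35.1 CPM in WT and 45.05, 60.1 and 49.0 CPM in *Snx14*-KO cerebella, with a log2 difference of 0.30 (95% interval -0.07 to 0.67). Leaving out WT replicate 1 gave 0.51 for *Stard4* and 0.25 for *Srebf2*, while *Stard4* was at 0.16 without *Snx14*-KO replicate 2 and *Srebf2* at 0.06 without WT replicate 3.

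*Soat1* was at 23.6, 25.6 and 28.1 CPM in WT and 30.7, 27.5 and 39.8 CPM in *Snx14*-KO cerebella. The groups overlapped by 1 library, and the highest was replicate 3, the library with the high microglia sum. The log2 fold change was 0.35 (SE 0.144, unadjusted p = 0.0365, adjusted p = 0.555 by edgeR), and 0.17 without that library. *Apoe* was at 1469, 1396 and 1503 CPM in WT and 1620, 1604 and 1915 CPM in *Snx14*-KO cerebella. All *Snx14*-KO libraries lay above all WT libraries, and replicate 3 was again the highest. The log2 fold change was 0.25 (SE 0.0926, unadjusted p = 0.0258, adjusted p = 0.497 by edgeR), and 0.15 without replicate 3. All 12 microglia markers (median log2 fold change 0.96, 8 with an unadjusted p under 0.05) and 8 of 10 astrocyte markers (median 0.27, 5 at that level) had higher values in *Snx14*-KO cerebella, none past the threshold, and the part of these cells, which express both genes, was not tested.

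*Abcg1*, which passes cholesterol to lipoprotein particles, was at 95.8, 90.1 and 84.5 CPM in WT and 75.2, 79.6 and 74.4 CPM in *Snx14*-KO cerebella. Every *Snx14*-KO library lay below every WT library, and the log2 fold change was -0.23 (SE 0.0677, unadjusted p = 0.00832, adjusted p = 0.381 by edgeR), the smallest p of the 34 genes in this tissue. With each library left out in turn it stayed between -0.27 and -0.19. All 8 granule cell markers (median log2 fold change -0.28, 4 of them with an unadjusted p under 0.05) and 7 of 8 Purkinje cell markers (median -0.16) had lower values in *Snx14*-KO cerebella, none past the threshold, and their part in the *Abcg1* difference was not tested. *Nr1h3*, the LXR alpha receptor that acts on *Abcg1*, was at 7.22, 4.69 and 6.60 CPM in WT and 4.45, 4.63 and 4.004 CPM in *Snx14*-KO cerebella. These values rest on 74 to 130 counts, the groups were separated by a narrow gap, and the log2 fold change was -0.49 (SE 0.198, unadjusted p = 0.0350, adjusted p = 0.549 by edgeR). *Abca1* was at 43.0, 56.2 and 59.5 CPM in WT and 56.0, 53.7 and 64.3 CPM in *Snx14*-KO cerebella, and *Cyp46a1* at 40.6, 33.4 and 29.6 CPM and 48.8, 32.1 and 39.4 CPM. Both overlapped, with log2 fold changes of 0.14 (95% interval -0.15 to 0.44) and 0.23 (95% interval -0.11 to 0.58). Replicates 1 and 3, the *Snx14*-KO cerebella with the higher *Cyp46a1* values, were also those with the high cortical neuron sums, whose part was not tested, and without replicate 1 the log2 fold change of *Cyp46a1* was 0.07. Without *Snx14*-KO replicate 2 that of *Cyp46a1* was 0.36. That of *Abca1* was 0.0047 without WT replicate 1 and 0.24 without WT replicate 3.

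In cerebellum 1 of the 34 genes had all *Snx14*-KO libraries above the WT libraries and 2 had them below, against 6.99% and 5.25% of all genes. When WT replicate 1 was left out these counts were 13 and 3, against 11.2% and 11.5%. WT replicate 1 was the highest of the 6 libraries for 11 of the 19 synthesis genes. It was the cerebellum with the highest oligodendrocyte sum and with the lowest sums of meningeal genes (183 CPM, against 336 to 487 CPM) and choroid plexus genes (81.4 CPM, against 969 to 7320 CPM), whose part was not tested. Without it, 16 of 19 synthesis genes had higher values in the *Snx14*-KO mice (median 0.17), and 7 members had an unadjusted p under 0.05 and were higher and 1 was lower, with 7.61% of all genes at that level. The synthesis median came to 0.03 when WT replicate 3 was left out and to 0.04 when WT replicate 2 was. Without WT replicate 2 there were 0 higher and 2 lower members at that level (7.76% of all genes), and without *Snx14*-KO replicate 3 there were 1 and 1 (4.91%).

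**Figure D3:**
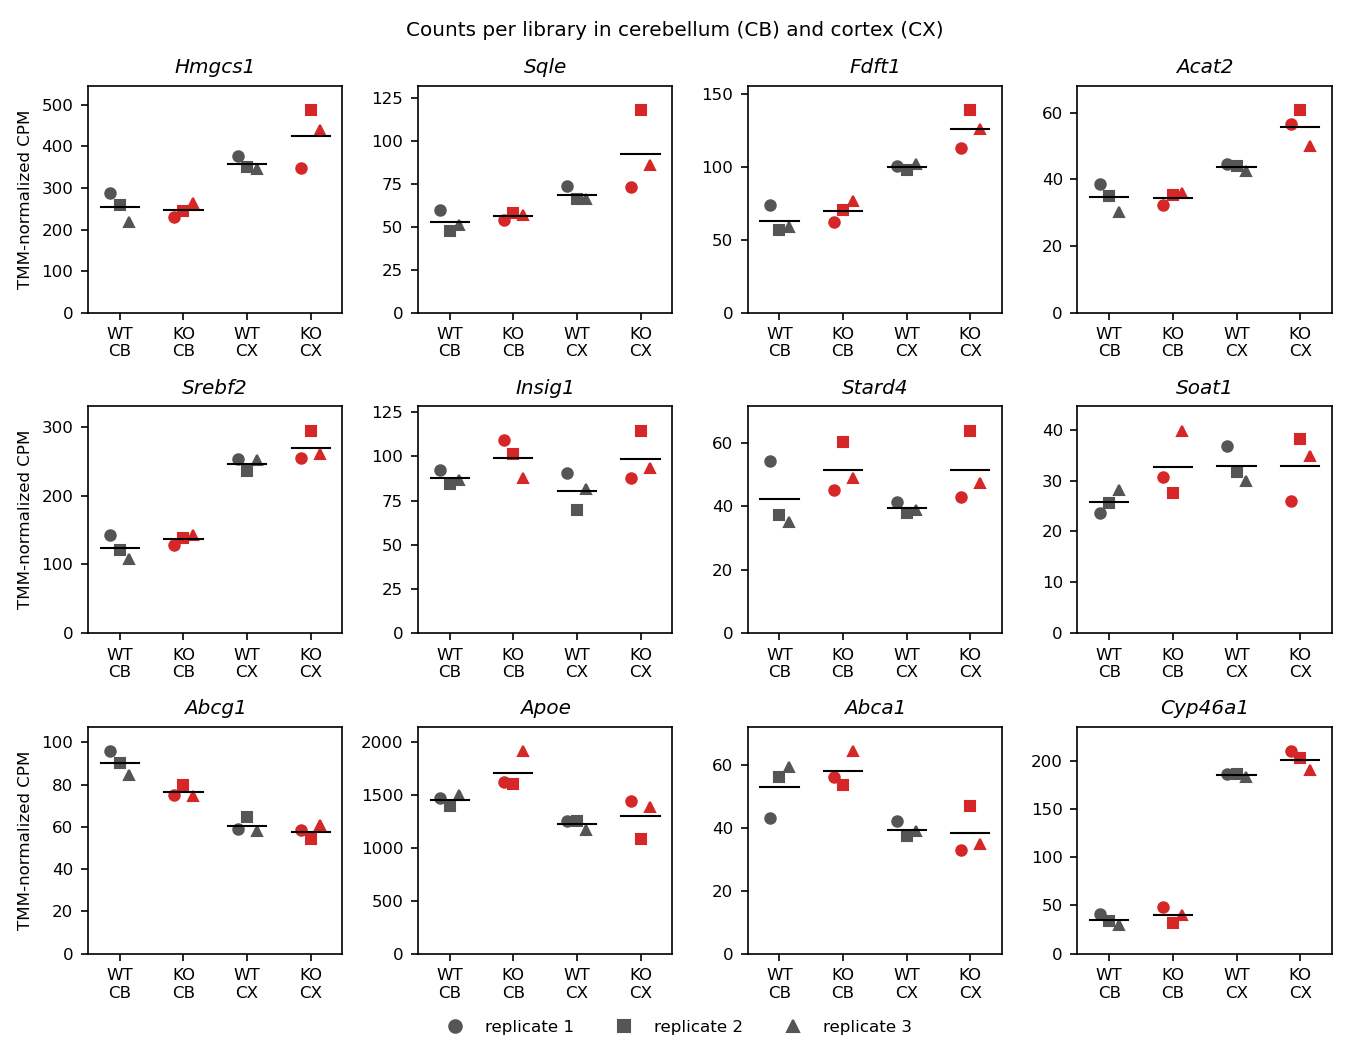
TMM-normalized CPM in each of the 12 libraries for 12 of the genes, with WT in grey, *Snx14*-KO in red, marker shape for the replicate number and a line for the mean of 3 libraries; CB is cerebellum and CX cortex. *Sqle* ran from 73.1 to 118 CPM in *Snx14*-KO cortices and from 66.0 to 73.8 CPM in WT cortices, while *Abcg1* was lower in all *Snx14*-KO than in all WT cerebella.

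A score of each list was taken in each library as the mean over its genes of log2(CPM + 1) minus the gene's mean over the 6 libraries of that tissue. The synthesis score was -0.01, -0.14 and -0.13 in WT and -0.08, 0.26 and 0.10 in *Snx14*-KO cortices. The efflux score stayed between -0.04 and 0.04 in WT and between -0.04 and 0.02 in *Snx14*-KO cortices. Synthesis minus efflux was -0.05, -0.10 and -0.12 in WT and -0.10, 0.29 and 0.08 in *Snx14*-KO cortices. Replicates 2 and 3 of the *Snx14*-KO cortices thus lay above all WT cortices, and replicate 1 within their range. In cerebellum the difference was 0.06, -0.04 and -0.14 in WT and -0.06, 0.15 and 0.03 in *Snx14*-KO mice, with overlapping groups. The score of uptake, transport and esterification was -0.07, -0.12 and -0.08 in WT and 0.05, 0.09 and 0.12 in *Snx14*-KO cerebella, which did not overlap, and -0.11 to 0.00 and -0.11 to 0.27 in the cortices, which did. Taken singly, 0 of these 4 genes separated the cerebella by genotype, and 1 of them, *Mylip*, encodes a ubiquitin ligase of lipoprotein receptors. The astrocyte, meningeal and cortical neuron scores did not overlap between the same cerebella either, and their part was not tested. For synthesis minus efflux, the mean of *Snx14*-KO minus WT was 0.18 in cortex, or 0.07 without replicate 2 of the *Snx14*-KO cortices, and 0.08 in cerebellum. Without *Snx14*-KO replicate 1 the cortex value was 0.27. The cerebellum value was 0.03 without *Snx14*-KO replicate 2 or WT replicate 3 and 0.13 without *Snx14*-KO replicate 1 or WT replicate 1.

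**Figure D4:**
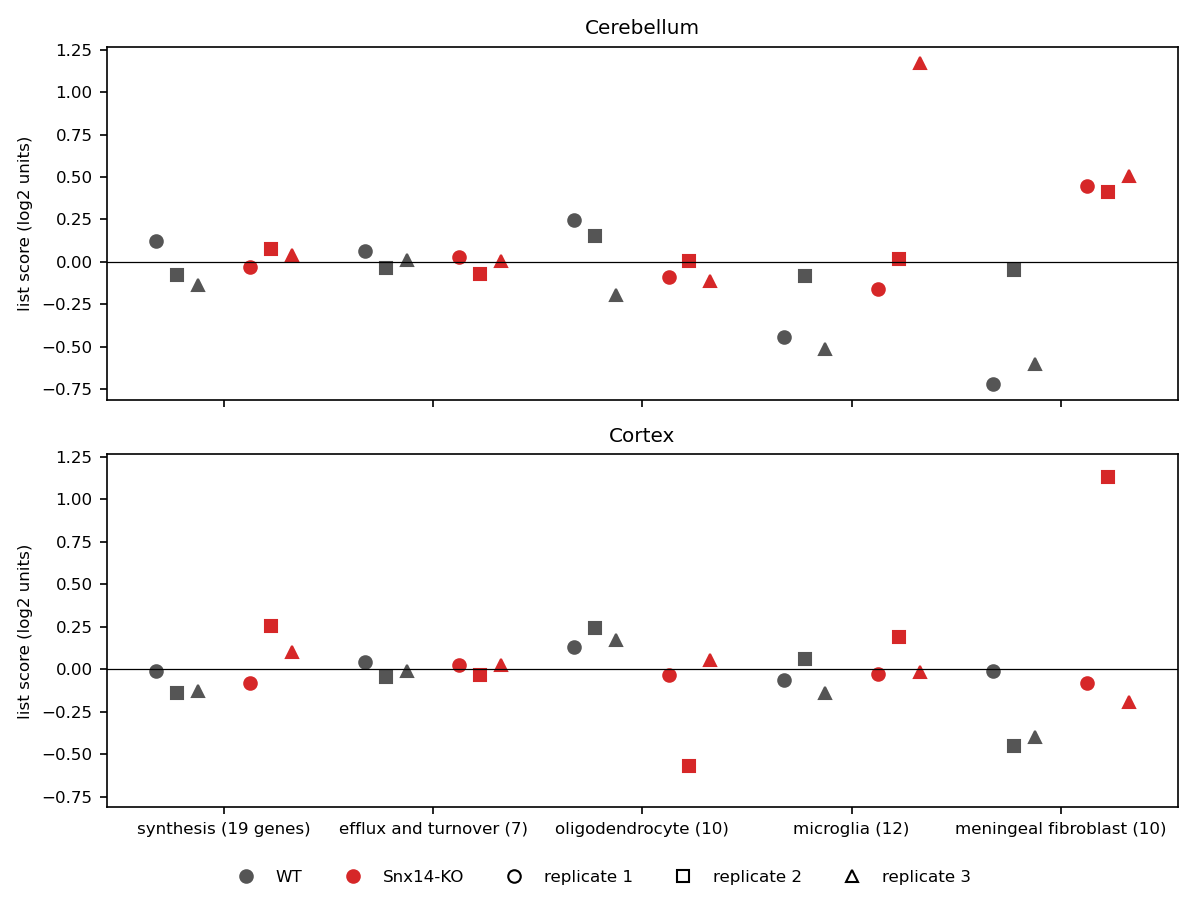
List scores per library (log2 units centred on the 6 libraries of that tissue) for synthesis, efflux and turnover, and 3 lists of cell type markers, in cerebellum (top) and cortex (bottom). *Snx14*-KO cortex replicate 2 is highest for synthesis (0.26) and meningeal markers (1.13) and lowest for oligodendrocyte markers (-0.57).

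The interaction of tissue and genotype asked whether cerebellum and cortex differed in their response. Here the threshold was an adjusted p under 0.05, with no fold limit. It was passed by 0 of the 34 genes, and by 0 of 19380 genes (0%) with edgeR and 0.186% with DESeq2. *Acat2* alone had an unadjusted p under 0.05, with a *Snx14*-KO effect 0.36 lower in cerebellum than in cortex on the log2 scale (SE 0.134, unadjusted p = 0.0174, adjusted p = 0.695 by edgeR), where 1.71% of all genes were lower and 3.97% higher at that level (5.68% in all). With each mouse as a block there were 2 such members, *Acat2* and *Hmgcs1* (5.9% of all genes). Without WT mouse 1 there were 0 (4.89% of all genes), without WT mouse 3 or *Snx14*-KO mouse 1 there were 2 (5.26% and 5.11%), and without *Snx14*-KO mouse 2 there were 3, *Soat1*, *Abca1* and *Abcg1* (8.41%). The estimate was below 0 for 27 of the 34 genes and for 18 of 19 synthesis genes, with a median of -0.17 over synthesis, against 49.1% of all genes above 0. Without *Snx14*-KO mouse 2, 13 of 19 synthesis genes were below 0, with a median of -0.09, and without WT mouse 1 there were 15 of 19, with a median of -0.08. *Sqle* was at -0.35 (95% interval -0.76 to 0.07), *Hmgcs1* at -0.30 (95% interval -0.65 to 0.05), and *Soat1*, the highest estimate above 0, at 0.33 (95% interval -0.13 to 0.79). Without *Snx14*-KO mouse 2 these were -0.16, -0.19 and 0.55, and *Soat1* was at 0.17 without WT mouse 1. So the larger cortical differences of the synthesis genes were not shown to differ from those in cerebellum.

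Many more genes were called between the tissues than between the genotypes. In WT mice, 7 of the 34 genes passed the threshold, 3 higher and 4 lower in cerebellum, against 19% and 21.4% of 18543 genes (40.4% in all by edgeR and 38.9% by DESeq2). At adjusted p under 0.05 with no fold limit there were 11 higher and 12 lower, against 28.2% and 29.2%. Of all genes 51.6% were higher in WT cerebellum. Of the 19 synthesis genes 13 were lower there, with a median log2 difference of -0.17, and of the 7 genes of efflux and turnover 6 were higher, with a median of 0.26. The synthesis median was -0.38 without WT cerebellum replicate 1 and -0.095 without WT cerebellum replicate 2.

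*Cyp46a1*, the neuronal 24-hydroxylase, had the largest difference. It was at 33.4 CPM as the middle of 3 WT cerebella (29.6 to 40.6 CPM) and at 183 to 187 CPM in WT cortices, 5.34-fold higher in cortex (log2 difference -2.42, SE 0.101, adjusted p = 1.12e-08 by edgeR). *Srebf2* was at 108 to 143 CPM in WT cerebella and 236 to 253 CPM in WT cortices, 1.98-fold higher in cortex (log2 difference -0.98, SE 0.0926, adjusted p = 6.44e-06). The groups were far apart in both genes.

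Among the enzymes, *Msmo1*, the sterol C4-methyl oxidase, was at 61.1 to 76.6 CPM in WT cerebella and 100 to 133 CPM in WT cortices (log2 difference -0.77, SE 0.111, adjusted p = 0.000163 by edgeR). *Fdft1* was at 56.4 to 74.0 CPM and 97.6 to 102 CPM (log2 difference -0.66, SE 0.0955, adjusted p = 0.000168). *Ebp*, the sterol isomerase, went the other way, at 29.4 to 30.4 CPM in WT cerebella and 14.5 to 16.6 CPM in WT cortices, 1.94-fold higher in cerebellum (log2 difference 0.95, SE 0.0894, adjusted p = 6.14e-06). It was the only synthesis gene called higher, since *Ggps1* (0.30) and *Sc5d* (0.29) had adjusted p under 0.05 but smaller differences.

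*Nr1h3* was at 4.69 to 7.22 CPM in WT cerebella and 1.61 to 2.45 CPM in WT cortices, 2.86-fold higher in cerebellum (log2 difference 1.52, SE 0.242, adjusted p = 0.000340 by edgeR), from 30 to 46 counts in cortex. *Abcg1* was 1.497-fold higher (84.5 to 95.8 against 58.3 to 64.5 CPM, adjusted p = 4.63e-05). *Abca1* and *Apoe* had log2 differences of 0.43 and 0.26 with adjusted p = 0.00925 and 0.00682 by edgeR, short of the fold limit. WT cerebella held more of the oligodendrocyte markers (11274 to 14827 against 8165 to 8535 CPM) and of the astrocyte markers (7461 to 8219 against 6160 to 7029 CPM), and fewer of the microglia markers (218 to 281 against 508 to 584 CPM). Of the 10 astrocyte markers 9 were higher in WT cerebella, with *Aldoc* at 2179 to 2531 against 847 to 985 CPM. *Slc1a2* was lower there, at 1014 to 1225 against 3794 to 4349 CPM, so the astrocyte sum depends on which markers are taken. The part of these cell types in the differences between the tissues was not tested.

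In *Snx14*-KO mice 12 of the 34 genes passed the threshold, 3 higher and 9 lower in cerebellum, against 18.2% and 19.6% of 18542 genes (37.9% in all by edgeR and 36.1% by DESeq2). All of the genes called in WT mice were called here in the same direction except *Abcg1* (log2 difference 0.41, adjusted p = 0.00131). The others were *Hmgcs1* (-0.78), *Sqle* (-0.71), *Acat2* (-0.69), *Nsdhl* (-0.69), *Fdps* (-0.50) and *Abca1* (0.61). *Fdps* sits on the fold limit and was not called with the replicate number as a block, which left 11. *Fdps* was likewise not called without *Snx14*-KO cerebellum replicate 3 or cortex replicate 2, and *Hsd17b7* was called in addition without cortex replicate 1. The efflux and turnover genes had a median log2 difference of 0.40, with 5 of 7 higher in cerebellum, and the synthesis genes had a median of -0.28, with 16 of 19 lower, where 51.4% of all genes were higher. *Srebf2* differed by -0.98 and *Cyp46a1* by -2.32 on the log2 scale, next to -0.98 and -2.42 in WT mice. As the interaction test gave no call, the counts of 7 and 12 do not show that the genotypes differ.

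**Figure D5:**
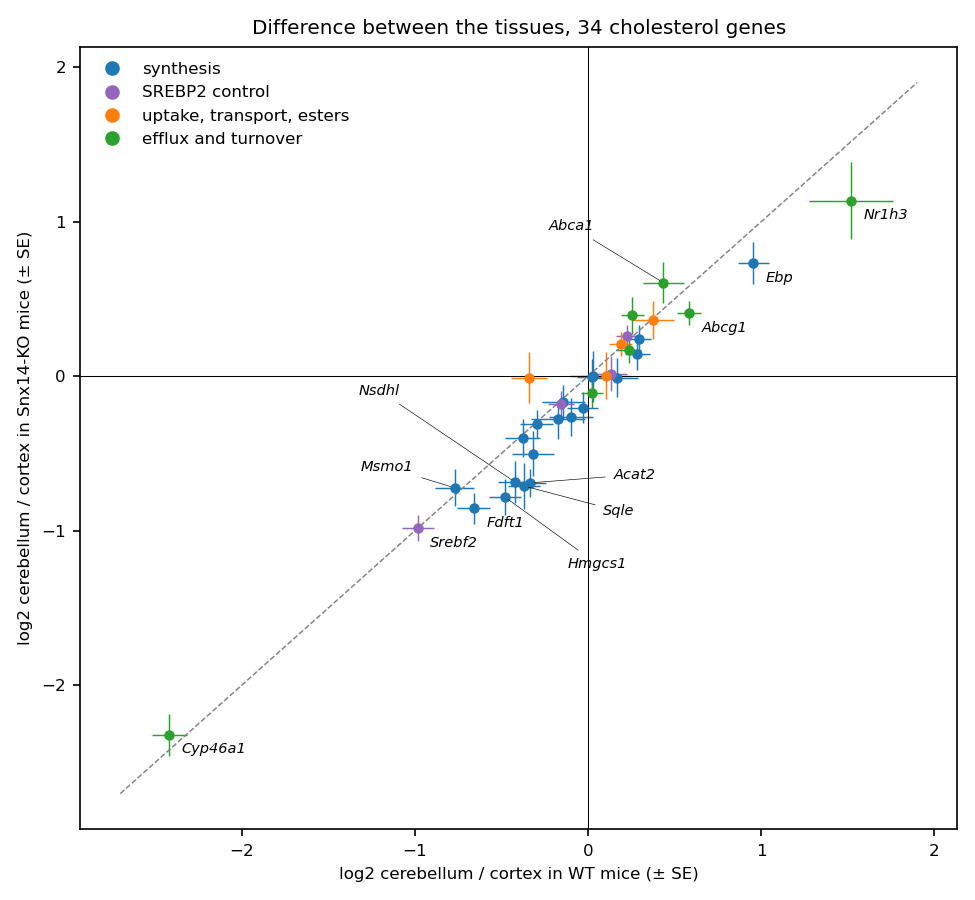
Log2 difference between cerebellum and cortex of the 34 genes in WT mice (horizontal) and *Snx14*-KO mice (vertical), with bars for the standard error, colours for the gene groups and a dashed line where both are equal. *Cyp46a1*, *Srebf2*, *Ebp* and *Nr1h3* lie far from 0 in both genotypes, and *Hmgcs1*, *Sqle*, *Acat2* and *Nsdhl* lie below the line.

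A further list of 32 genes of sterol sensing, uptake, transport and efflux outside the 34 was examined. In each tissue 30 of them were tested between the genotypes, and 0 passed the threshold. *Rxra*, the partner receptor of LXR, had a log2 fold change of 0.37 in cerebellum (unadjusted p = 0.0136, adjusted p = 0.430 by edgeR). Between the WT tissues, 9 of these 30 genes were called higher and 5 lower in cerebellum, against 19% and 21.4% of all genes. In the interaction, *Rxra* alone of the list had an unadjusted p under 0.05 (0.36 on the log2 scale, unadjusted p = 0.0215, adjusted p = 0.729 by edgeR).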

How the data were processed

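RNA of whole cerebellum and cerebral cortex was sequenced as paired reads. After trimming, the authors aligned reads to GRCm38 by STAR, and pairs were assigned to genes with featureCounts (Subread 2.0.1), ignoring strand and counting a pair for every gene it overlapped. The counts were deposited without normalization, 16672589 to 19887427 per library on the genes used. Here, rows were matched by versioned gene ID to GENCODE vM21 (55450 genes of 81881 features; 0.0506% to 0.0632% of counts left out). Genes kept by filterByExpr were fitted with edgeR 4.0.16 (TMM, glmQLFit, glmQLFTest) in R 4.3.3, with the 6 libraries of a comparison, or all 12 for the interaction, and p-values were adjusted over all genes tested. A call needs an adjusted p below 0.05 together with a log2 fold change beyond 0.5 in either direction. In the interaction it needs the adjusted p alone. DESeq2 1.42.0, the tool of the authors in another version, was an alternative, as were DESeq2 size factors, no filter on low counts, each library left out, a replicate block, and members with under 10% shared exon bases. In the interaction the block was the mouse, which joins the cerebellum and cortex of the same number and genotype. Scores used a pseudocount of 1 CPM (alternatives were 0.25 CPM and the median over the genes). The fits were tested on simulated data.

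Genes described by library were Snx14, members with an unadjusted p under 0.05 in a genotype comparison or the interaction, up to 5 synthesis and 5 other members with the largest called difference between WT tissues, and 11 members named by role whatever their values; *Tm7sf2*, *Ggps1*, *Mvd*, *Sc5d*, *Lss* and *Hsd17b7* and the markers *Nrgn*, *Tbr1* and *Gfap* are mentioned outside this rule, after their values were seen. The members and lists were chosen with earlier results of these data known. The labels give cerebellum and cortex the same mouse numbers, taken here as the same mouse; deviations of same-numbered libraries correlated at 0.073 to 0.159 in WT and 0.0176 to 0.338 in *Snx14*-KO mice, and those of different numbers at up to 0.155. WT and *Snx14*-KO mice share only a number (-0.0914 to 0.0811). Within a tissue each library is of another mouse, so p-values of the genotype comparisons measure the spread between 3 mice a group, and the tissue and interaction fits hold a pair of libraries per mouse. Some results for genes outside the 34 are not reported here.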

Additional observations from a re-analysis of the deposited data

How the results depend on the processing

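The absence of calls among the 34 genes in the genotype comparisons and the interaction held under every alternative run, DESeq2 and the replicate block included, and between the tissues the count of calls stayed at 7 to 9 in WT and 11 to 13 in *Snx14*-KO mice with a library left out. Over all genes, those fits called 7213 to 7691 of 18907 to 19088 in WT mice. In *Snx14*-KO mice they called 6667 to 7029 of 18971 to 19081. The counts at unadjusted p under 0.05 moved more. In cortex there were 8 members, 5 with under 10% shared exon bases, and 4 to 13 with a library left out (3.43% to 6.33% of all genes). In cerebellum there were 4, and 2 to 8 with a library left out (4.91% to 10.7%). In the interaction there was 1 (5.68%), with 4 when every gene with a count was tested (5.66%) and 2 with each mouse as a block (5.9%). With a mouse left out there were 0 to 3 (3.97% to 8.41%). Over all genes, DESeq2 called 164 in cerebellum, 9 in cortex and 36 in the interaction, and edgeR on every gene with at least 1 count called 347, 149 and 418, where the reported fits called 1, 1 and 0. Medians moved with a library left out from -0.0767 to 0.0597 for efflux and turnover in cerebellum, -0.0270 to 0.0492 in cortex, -0.380 to -0.0953 for synthesis between WT tissues, 0.271 to 0.448 for efflux between *Snx14*-KO tissues and -0.0838 to 0.00165 in the interaction. Estimates near 0 changed sign. In cerebellum *Acat2* was -0.0006165 with DESeq2 size factors and -0.0007023 with DESeq2, *Idi1* between *Snx14*-KO tissues was 0.0189 with the replicate block, and *Srebf2* in the interaction was 0.003017 with every gene and 0.005643 with the block. With a library left out, the genotype effect ran from -0.140 to 0.0478 for *Hmgcs1* and -0.0788 to 0.0868 for *Acat2* in cerebellum, and from -0.214 to 0.0526 for *Abca1*, -0.105 to 0.153 for *Soat1* and -0.295 to 0.0765 for *Nr1h3* in cortex. Between tissues it ran from -0.0728 to 0.139 for *Idi1* in WT, and from -0.168 to 0.137 for *Idi1*, -0.0567 to 0.130 for *Insig1* and -0.172 to 0.102 for *Soat1* in *Snx14*-KO mice. In the interaction it ran from -0.209 to 0.0766 for *Stard4*, -0.104 to 0.0828 for *Srebf2*, -0.0172 to 0.396 for *Abca1*, -0.134 to 0.0992 for *Idi1*, -0.0364 to 0.236 for *Cyp46a1* and -0.111 to 0.0342 for *Dhcr7*. The cause of these changes was not tested. Between WT tissues, *Hmgcs1* crossed the fold limit without WT cerebellum replicate 1 or cortex replicate 2 or 3, and *Abca1* without WT cerebellum replicate 1. The replicate block changed no call except that of *Fdps* between *Snx14*-KO tissues. With 3 mice a group, the 95% intervals and standard errors given beside the genes show how uncertain each estimate is. The smallest difference that could have been called was not determined.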
